A study of Mus musculus with 2 samples.

Results

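Tight junction genes were read along the nephron of the injured mouse kidney. The genes were the claudins Cldn2, Cldn3, Cldn4, Cldn7, Cldn8, Cldn10, Cldn16 and Cldn19, the occludin gene Ocln, and Tjp1, which encodes the scaffold protein ZO-1. They were taken by symbol from the gene list of the count matrices, and all 10 were found among its 32285 genes. The list rests on symbols and uses no values, although it was drawn up with earlier results of these data known. Each was measured in cell classes named from other marker genes, in a control and a JPI-289 treated library.

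The study asked how JPI-289, an inhibitor of poly(ADP-ribose) polymerase, acts in renal ischemia-reperfusion injury (IRI), in which the blood supply of the kidneys is clamped and then released. Both libraries came from male C57BL/6 mice aged 9 weeks that underwent bilateral IRI surgery and were killed 24 h later. One group received saline and the other JPI-289 at 100 mg/kg, given into the peritoneum just before reperfusion. Single kidney cells were profiled by droplet sequencing with a kit that reads the 5′ ends of transcripts, so that each unique molecular identifier (UMI) counts 1 captured RNA molecule. There was 1 library per condition and no library of an uninjured kidney was used here. A difference between conditions therefore cannot be told apart from a difference between 2 preparations, and no test between conditions was made. All intervals are exact 95% intervals that cover counting error only, Poisson for levels, binomial for shares.

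Tight junctions seal the space between neighbouring epithelial cells and decide which ions pass between them. Claudins are the membrane proteins that give each nephron segment its own permeability: some form pores for cations or anions and others close the path. Occludin belongs to the same strands, and ZO-1 ties the strands to the actin cytoskeleton. In the kidney the proximal tubule is leaky, the thick ascending limb takes up calcium and magnesium between cells, and the collecting duct is tight.

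The control files held 38328760 UMIs and those of the JPI-289 library 35548396. After cell calling and a filter on mitochondrial UMIs, 3749 control and 5048 JPI-289 cells were kept, with median depths of 2059 and 1865 UMIs per cell. The libraries shared 23 cell barcodes. The classes used were proximal tubule-like (PT, 1799 control and 1652 JPI-289 cells), thin limb-like (52 and 49), thick ascending limb-like (TAL, 103 and 301), distal convoluted and connecting tubule-like (DCT/CNT, 141 and 242), principal cell-like (PC, 63 and 86), intercalated cell-like (IC, 43 and 42) and endothelial-like (EC, 502 and 574). The marker list of each class was present in both libraries, with every listed gene detected except 1 of 6 in the thin limb-like cells. Clusters that failed the naming rule stayed unnamed and held 10.2% of control and 17.3% of JPI-289 cells. In these, markers of another class or nuclear RNA led, no marker of their own led, 2 segments scored close or another class scored higher. The libraries stood apart within several classes: all PT-like cells fell in clusters that drew over 90% of their cells from 1 library, as did 58.3% of control and 76.7% of JPI-289 TAL-like cells and 36.3% of control EC-like cells. Neutrophil-like and red blood cell-like cells, which should lack epithelial claudins, and barcodes with under 100 UMIs, which hold mostly free RNA, served as background.

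Sequence upstream of the transcription start was available for 9 of the 10 genes (RefSeq, GRCm38.p6), as 13 windows of 250 bases. Cldn8 had no entry. The windows of Cldn2 and Cldn10 are printed because these were the members that differed most between the libraries in the proximal tubule, and that of Cldn4 because it was the most abundant member of the distal nephron. Each is written 5′ to 3′ on the strand of its gene, and capitals mark matches to the motifs named below. The Cldn2 window lies at chrX:139800558-139800807 on the plus strand, that of Cldn10 at chr14:118787621-118787870 on the plus strand and that of Cldn4 at chr5:134946935-134947184 on the minus strand.
Cldn2: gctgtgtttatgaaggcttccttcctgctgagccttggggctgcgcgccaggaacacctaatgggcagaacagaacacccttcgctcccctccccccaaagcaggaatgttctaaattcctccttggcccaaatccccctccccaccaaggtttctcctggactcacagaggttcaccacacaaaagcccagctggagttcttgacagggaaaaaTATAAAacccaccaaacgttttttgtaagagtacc
Cldn10: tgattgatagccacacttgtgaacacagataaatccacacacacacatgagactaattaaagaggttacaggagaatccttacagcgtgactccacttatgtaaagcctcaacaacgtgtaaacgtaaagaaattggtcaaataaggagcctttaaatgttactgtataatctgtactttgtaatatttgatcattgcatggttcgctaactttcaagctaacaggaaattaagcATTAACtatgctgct
Cldn4: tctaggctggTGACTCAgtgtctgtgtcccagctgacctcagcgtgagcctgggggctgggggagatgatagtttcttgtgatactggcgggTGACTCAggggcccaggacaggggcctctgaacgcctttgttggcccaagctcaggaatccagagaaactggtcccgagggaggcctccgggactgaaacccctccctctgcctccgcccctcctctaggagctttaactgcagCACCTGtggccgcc
These sets of letters were searched on both strands, and no matches overlapped among the members. TATAAA, the TATA box, was found in 12.4% of all 32851 windows of the table and, among the members, in Cldn2 alone, 35 to 30 bases before the start. GTTAAT, a half-site of the hepatocyte nuclear factor 1 (HNF1) family, was in 6.43% of all windows. It matched Cldn10, in the reverse direction 15 to 10 bases before the start that follows the window shown. TGANTCA, the AP-1 motif, was in 6.75% of all windows and matched Cldn4 at 240 to 234 and at 158 to 152 bases before the start. CACCTG, an E-box that Snail and Zeb factors bind, was in 17.2% of all windows and matched Cldn4, the second start of Cldn7 and the first start of Ocln. AACCNGTT, a grainyhead-like motif, was in 1.79% of all windows and in none of the members. A match is a description of letters and not a measured site. Cldn10 had 2 annotated starts, 1 of them far inside the gene, and its counts are for the gene as a whole.

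In the gene annotation of GRCm38, Cldn3 (chr5:134986214-134987472) and Cldn4 (chr5:134945119-134946934) were neighbours on opposite strands, 39279 bases apart. The other members were spread over the genome, with Cldn2 at chrX:139800828-139811386, Cldn7 at chr11:69964779-69967885, Cldn8 at chr16:88560828-88563183, Cldn10 at chr14:118787908-118875489, Cldn16 at chr16:26463135-26482765, Cldn19 at chr4:119255414-119262438, Ocln at chr13:100496507-100552718 and Tjp1 at chr7:65296165-65527781.

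The claudins were spread unevenly along the nephron. Levels are given as counts per 1000000 UMIs of the class (CPM), with the control value first. Because 5′ UMIs count 1 molecule each, they do not grow with transcript length, although capture can differ between genes. Cldn2, a pore for cations and water, was highest in PT-like cells at 267 and 76.2, followed by thin limb-like cells at 170 and 25.6. Every other tubule class held 22.2 or less of it in the control, where neutrophil-like cells held 27.6. Cldn10, which forms either cation or anion pores depending on the isoform, was highest in TAL-like cells at 185 and 170. In the control PT-like cells came next at 127. In the JPI-289 library they were at 3.94 (2.64 to 5.66). Barcodes with under 100 UMIs were at 8.73 (1.80 to 25.5) there, from 3 UMIs, so these levels did not differ beyond their counting intervals. Neutrophil-like cells of that library were at 0.622 (0.0158 to 3.47), from 1 UMI. Free RNA was estimated at 3.39% of all UMIs of the JPI-289 PT-like cells and at 7.51% of their Cldn10 UMIs. Whether the rest is expression was not tested.

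**Figure D1:**
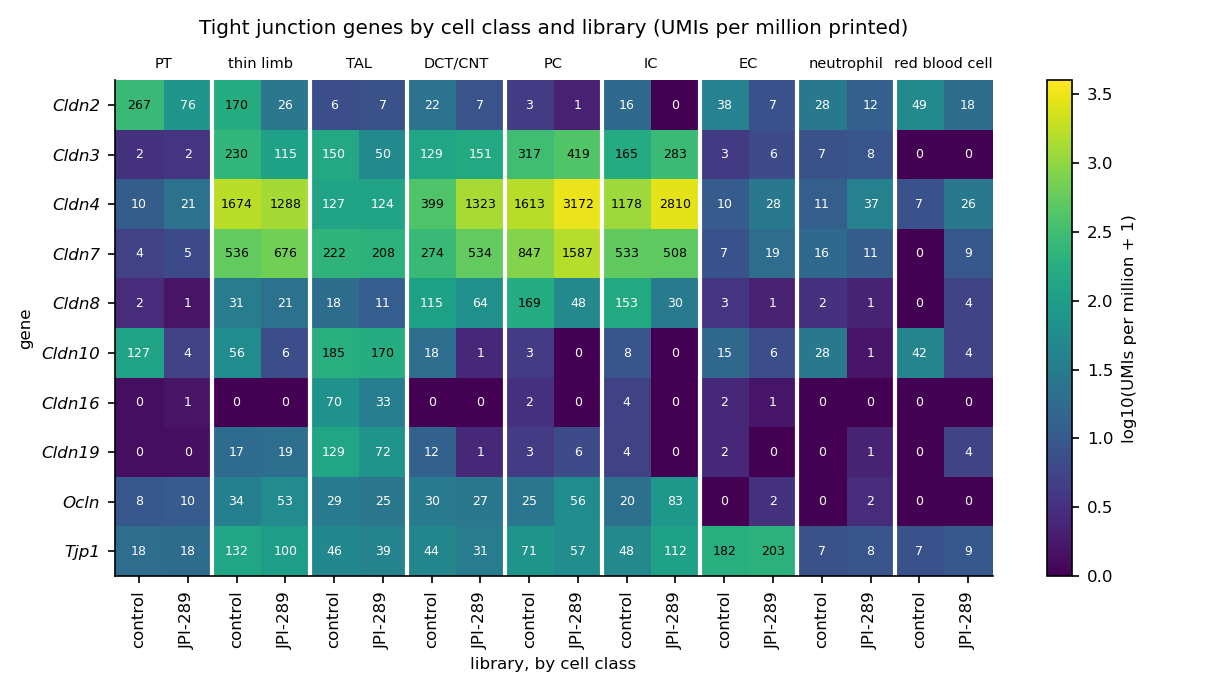
Level of each of the 10 genes (rows) in each cell class (columns), control and JPI-289 libraries side by side, in CPM on a log colour scale. Cldn16 and Cldn19 are seen in the TAL-like columns, Cldn2 in PT-like cells (267 in the control), and Cldn4 reaches its top value in the JPI-289 PC-like cells (3172).

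Cldn16 and Cldn19, which together form the divalent cation path of the thick ascending limb, were in TAL-like cells at 70.1 and 33.3 for Cldn16 and at 129 and 72.5 for Cldn19. Among classes of over 30 cells per library, the next for Cldn19 was thin limb-like at 17.1 and 19.2, and none but TAL-like exceeded 4.04 CPM of Cldn16. Cldn4, a sealing claudin that also passes chloride, was the most abundant member in thin limb-like, DCT/CNT-like, PC-like and IC-like cells. In the control the order was thin limb-like (1674), PC-like (1613), IC-like (1178) and DCT/CNT-like (399). Among these, thin limb-like and PC-like cells did not differ beyond their counting intervals. In the JPI-289 library it was PC-like (3172), IC-like (2810), DCT/CNT-like (1323) and thin limb-like (1288), where IC-like and DCT/CNT-like cells were the one neighbouring pair without overlapping intervals. Cldn7, found along the basolateral membrane as well as in the junction, was highest in PC-like cells at 847 and 1587. Cldn3, another sealing claudin, was also highest there at 317 and 419. Cldn8, which closes the collecting duct to sodium, was at 169 in control PC-like cells, 153 in IC-like and 115 in DCT/CNT-like cells, and these did not differ beyond their counting intervals.

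Ocln was low in every tubule class, from 8.38 CPM in control PT-like cells to 82.7 in JPI-289 IC-like cells. No Ocln UMI was found in the control EC-like cells, which allows up to 1.87 CPM. Tjp1 differed from the claudins in that, among the classes with over 30 cells per library, it was highest in EC-like cells at 182 and 203. Control thin limb-like cells followed at 132, and PT-like cells were lowest of the tubule classes at 18.4 and 17.9. The neutrophil-like cells held 6.90 and 8.09.

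For the comparison of the libraries a gene is said to be tested in a class where it had at least 20 UMIs over both libraries, although no replicate test was possible. It was called higher or lower where the JPI-289 level differed at least 2-fold and the counting interval of the log2 ratio left out 0. Over 7 classes this gave 47 ratios. The median log2 ratio of the members tested in a class ran from −0.39 in thin limb-like to 0.77 in IC-like cells, and that of all genes tested from −0.20 in PT-like to 0.06 in IC-like cells.

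**Figure D2:**
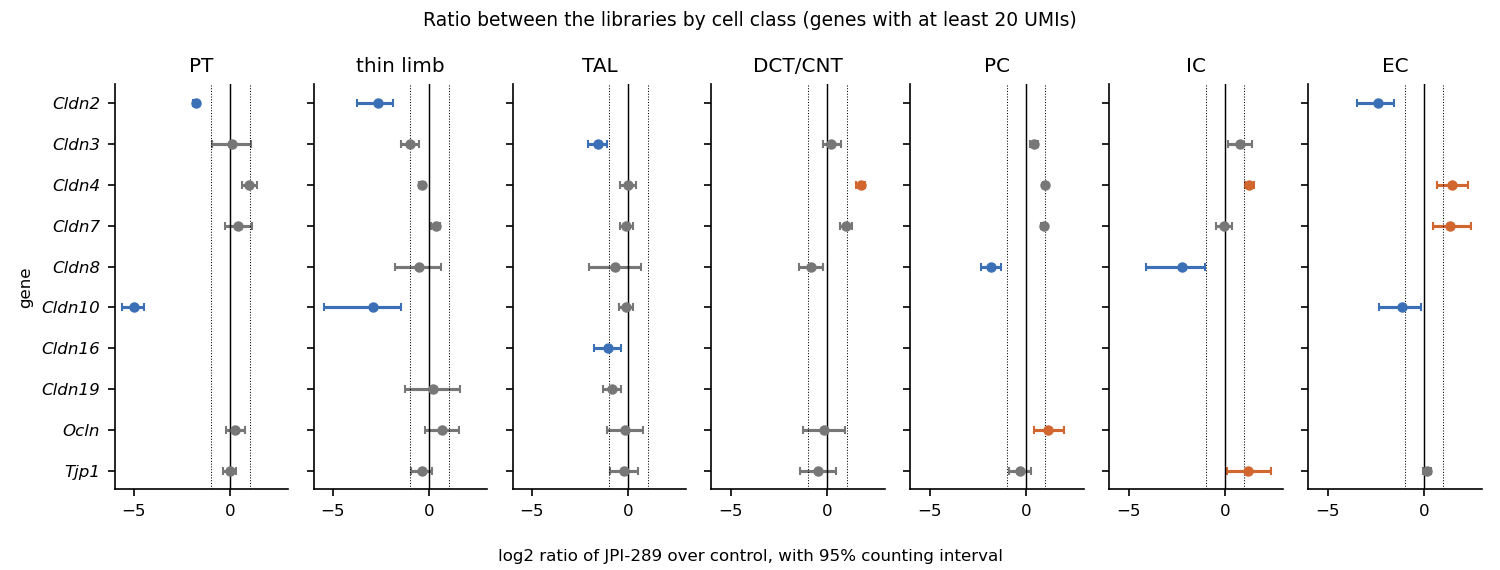
Ratios of the JPI-289 to the control level (log2) of each member in each class, with 95% counting intervals as bars; orange points were called higher, blue points lower and grey points neither, and dotted lines mark 2-fold. Cldn10 in PT-like cells lies farthest from 0 at −4.99, and Cldn4 in DCT/CNT-like cells is the highest called epithelial value at 1.73.

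In PT-like cells both claudins of the proximal tubule were lower in the JPI-289 library. Cldn10 had 1032 control and 29 JPI-289 UMIs, which gave a log2 ratio of −4.99 (−5.60 to −4.48), 31.7-fold lower. Cldn2 had 2168 and 561 UMIs and a log2 ratio of −1.81 (−1.95 to −1.67), 3.50-fold lower. Of 7 members tested these 2 were called lower and none higher, where 23.3% of all 11312 genes tested in PT-like cells were called lower and 8.9% higher. The median log2 ratio of all these genes was −0.20. Tjp1 had 149 and 132 UMIs with a log2 ratio of −0.03 (−0.38 to 0.31), and Ocln had 68 and 74 UMIs with 0.26 (−0.23 to 0.76). The intervals of the junction scaffold and of occludin thus held 0 in the cells where both pore claudins were lower.

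The same was seen in shares of cells at an equal depth. Cells were thinned at random to 1000 UMIs, and 459 control and 510 JPI-289 PT-like cells under that depth were dropped. A Cldn2 UMI was then present in 20.7% (18.6 to 23.0) of control and 5.60% of JPI-289 cells. The thinned neutrophil-like cells had 4.52% and 1.20%. Without thinning the PT-like shares were 40.7% and 20.6%. For Cldn10 the thinned shares were 9.85% and 0.70%, and the unthinned shares were 31.7% and 1.63%. Neutrophil-like cells had a thinned Cldn10 share of 1.69% in the control, and none of 581 JPI-289 cells had a UMI, which allows a share of up to 0.633%.

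The PT-like cells fell into 4 clusters of control cells and 4 clusters of JPI-289 cells, so a cluster and a library cannot be told apart here. The score of the proximal tubule marker list (PT score) ran from 2.80 to 3.42 over the control clusters. In the JPI-289 clusters it was lower, at 0.81, 0.95, 1.09 and 2.10. Cldn10 ran from 119.9 to 134.6 CPM over the control clusters and from 0 to 5.62 over the JPI-289 clusters, where the count of 0 allows up to 5.41. The clusters of the libraries did not overlap for Cldn10. Nor did they for the proximal tubule marker Lrp2, at 175 or above in control and 72.7 or below in JPI-289 clusters. They overlapped for Slc34a1 and Havcr1. The share of all genes that separate in this way was not counted. Cldn2 varied more within a library. The control clusters were at 107.9, 250, 337 and 376 CPM. The JPI-289 clusters were at 21.6, 45.4, 48.4 and 124, so the highest JPI-289 cluster lay above the lowest control cluster. That JPI-289 cluster was led by fibrinogen genes and by Slc5a2, the glucose transporter of the early proximal tubule. With the clusters led by early proximal markers alone, a choice made after seeing the data, the Cldn2 log2 ratio was −1.45. These clusters held 234 control and 559 JPI-289 cells. All PT-like values leave out an unnamed cluster of 10 control and 252 JPI-289 cells. In it the early proximal list scored highest, but nuclear RNA led. Gm26917 and Snhg11 were among its leading genes and also among those of the cluster of 234 control cells, which was kept. The part of this choice in the PT-like ratios was not tested.

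**Figure D3:**
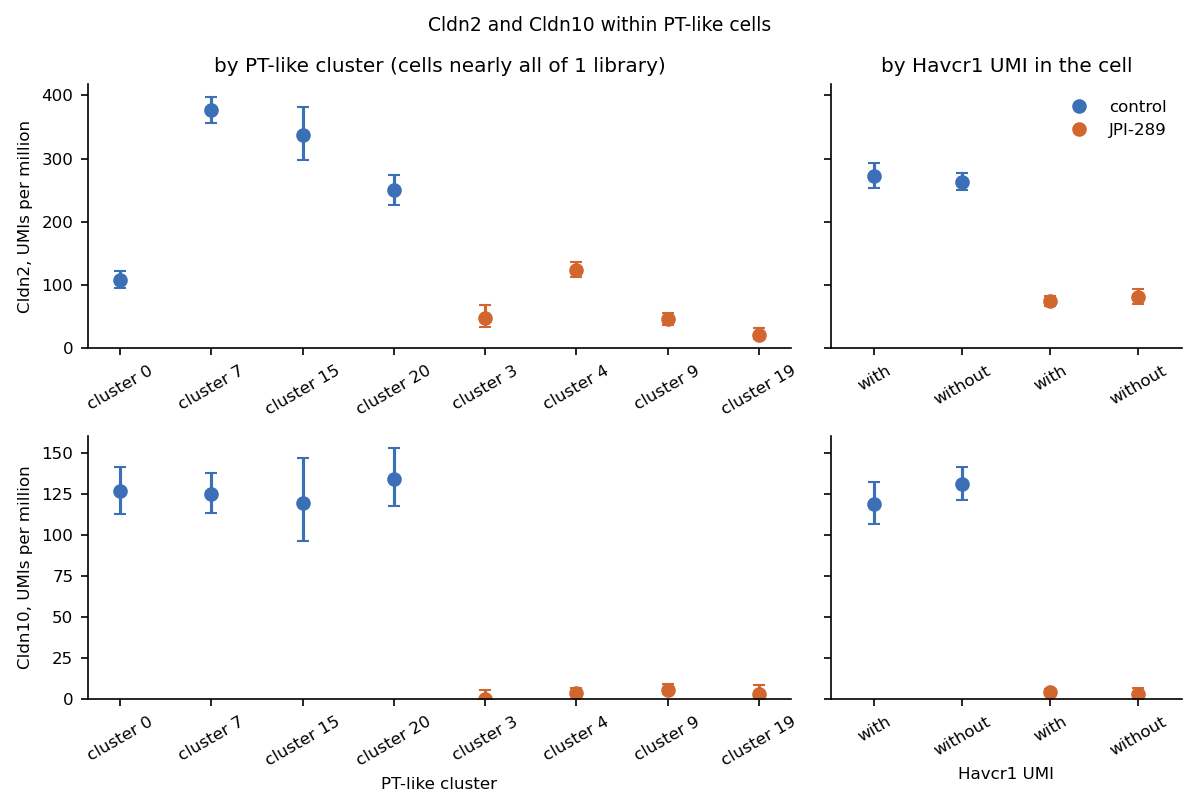
Levels of Cldn2 and Cldn10 in CPM with 95% counting intervals, on a linear axis. Left, the 8 clusters of PT-like cells, each nearly all of 1 library. Right, PT-like cells of each library with and without a Havcr1 UMI. All 4 control clusters lie at 119.9 or above for Cldn10 and all 4 JPI-289 clusters at 5.62 or below, whereas for Cldn2 the highest JPI-289 cluster (124) lies above the lowest control cluster (107.9). Lrp2 (not drawn) also separated by library, and the share of all genes that do so was not counted.

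Markers of the proximal tubule were lower in the JPI-289 PT-like cells, as Cldn2 and Cldn10 were, and an injury marker was higher. Slc34a1, the phosphate transporter, was at 1435 CPM in control and 772 in JPI-289 PT-like cells. Lrp2, the endocytic receptor megalin, was at 431 and 60.2. Havcr1, the injury marker KIM-1, was at 117 and 450. The part of these states in the claudin differences was not tested. A split by Havcr1 UMI is given as a description. In control PT-like cells Cldn2 was at 273 (254 to 293) where a Havcr1 UMI was present and at 264 (250 to 278) where none was. In JPI-289 cells it was at 74.0 (66.6 to 81.9) and 81.0 (69.9 to 93.3). Cldn10 was at 119 and 131 in the control and at 4.20 and 3.39 in JPI-289 cells. Within each library the intervals of the cells with and without Havcr1 overlapped for both claudins. Cells with a Havcr1 UMI were deeper, with a median of 5947 against 1844 UMIs in the control and 4253.5 against 1232 in the JPI-289 library. A cell without a Havcr1 UMI may only be shallow. The split therefore cannot separate injury states, and no conclusion is drawn from it.

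Cldn4 in PT-like cells was at 10.5 and 20.8 CPM, Cldn7 at 4.06 and 5.44 and Cldn3 at 2.34 and 2.45. Neutrophil-like cells held 11.5 and 36.7 of Cldn4, 16.1 and 10.6 of Cldn7 and 6.90 and 8.09 of Cldn3. The pooled PT-like levels were at or below these. By cluster Cldn4 reached 70.3 CPM (51.9 to 93.3) in a JPI-289 cluster of shallow cells, with a median of 839 UMIs, and 38.2 (25.6 to 54.9) in a control cluster, both above the neutrophil-like cells of their library, the latter with overlapping intervals. Free RNA was estimated to supply 36.7% of control and 39.9% of JPI-289 Cldn4 UMIs in PT-like cells. Whether the rest is expression was not tested.

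In thin limb-like cells 9 members were tested and 2 were called lower, where 10.8% of all 6489 genes were called lower and 9.63% higher. Cldn2 had 109 and 12 UMIs with a log2 ratio of −2.68 (−3.73 to −1.87). It was seen in 16.0% of control and 9.30% of JPI-289 cells after thinning. Cldn10 had 36 and 3 UMIs, but 28 of the 36 control UMIs, or 77.8%, came from 1 cell. Cldn3 had 148 and 54 UMIs with a log2 ratio of −0.99 (−1.48 to −0.54), and 1 control cell held 43.2% of its UMIs. Cldn4, with 1075 and 604 UMIs, had a log2 ratio of −0.38 (−0.52 to −0.23). Slc14a2, the urea transporter that marks the thin limb, was at 2438 and 3148 CPM. Of the 52 control and 49 JPI-289 cells, 27 and 31 remained when the 5% highest doublet scores were left out.

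In TAL-like cells 9 members were tested and 2 were called lower, Cldn3 and Cldn16, where 8.22% of all 6872 genes were called lower and 9.46% higher. Cldn3 had 94 and 51 UMIs and a log2 ratio of −1.58 (−2.11 to −1.08). Cldn16 had 44 and 34 UMIs with a log2 ratio of −1.07 (−1.76 to −0.40). Its partner Cldn19, with 81 and 74 UMIs, had −0.83 (−1.31 to −0.36), under 2-fold. Cldn10 differed from them: 116 and 174 UMIs gave a log2 ratio of −0.12 (−0.46 to 0.23), in contrast to its −4.99 in PT-like cells. The difference between the classes was not tested. Cldn14, which blocks the path formed by Cldn16 and Cldn19, had 11 control UMIs and none in the JPI-289 cells, too few for a call.

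The composition of the TAL-like class differed between the libraries. Slc12a1, the NKCC2 transporter and drug target of furosemide, was at 709 and 142 CPM, and Umod at 6842 and 9959. Control TAL-like cells also held 1761 CPM of red blood cell markers against 92.1 in the JPI-289 cells. Connecting tubule markers in them summed to 11342 and 1134 CPM, and the TAL markers to 8576 and 11216. Of the connecting tubule list Calb1 was read singly, and it went the other way, at 11.2 in control and 45.1 CPM in JPI-289 TAL-like cells. The part of these in the claudin ratios was not tested. Median depth was 4380 and 1990 UMIs. The 1 cluster shared by the libraries (43 control and 70 JPI-289 cells) was led by AY036118, Lars2 and Gm42418 and held mitochondrial genes among its leading genes, a pattern often seen in cells with poor RNA. In it Cldn10 had 8 and 5 UMIs, Cldn16 had 6 and 1, Cldn19 had 10 and 2 and Cldn3 had 7 and 6. The ratios from this cluster alone were −0.98 for Cldn10, −2.47 for Cldn16, −2.42 for Cldn19 and −0.56 for Cldn3. Cldn3 was thus under 2-fold there, Cldn19 past it, and Cldn10, Cldn16 and Cldn19 lay below their main intervals. With these few UMIs the order of the TAL claudins rests on the clusters of single libraries. The TAL-like ratios also leave out unnamed distal clusters in which TAL scored highest of the segments. These held 245 control and 2 JPI-289 cells, 63 and 77, 5 and 126, and 35 and 12. The part of this choice in the ratios was not tested.

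Cldn10 and the Cldn16 and Cldn19 pair were also compared cell by cell. In the control a Cldn10 UMI was present in 48.1% (34.3 to 62.2) of the 54 TAL-like cells with a Cldn16 or Cldn19 UMI and in 24.5% of the 49 without. In the JPI-289 library the shares were 28.4% and 22.2%. The cells with a UMI of the pair were deeper, at a median of 6908.5 against 1765 UMIs in the control. At 1000 UMIs per cell, 1 of 15 control cells with the pair and 11 of 75 without had a Cldn10 UMI. No separation or joint use of these claudins was detectable at this depth.

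In DCT/CNT-like, PC-like and IC-like cells the counting intervals lay above 0 for Cldn4 and below 0 for Cldn8, although Cldn4 in PC-like and Cldn8 in DCT/CNT-like cells were under 2-fold. In TAL-like cells Cldn4 was at 127 and 124 CPM with a log2 ratio of −0.04 (−0.45 to 0.39). There 1 control cell held 25 of the 80 control UMIs, and 1 JPI-289 cell held 23 of the 127 JPI-289 UMIs. In DCT/CNT-like cells Cldn4 had 198 control and 887 JPI-289 UMIs, a level of 399 and 1323 CPM and a log2 ratio of 1.73 (1.51 to 1.96), 3.31-fold higher. It was the 1 member called of 6 tested, where 8.2% of all 5914 genes were called higher and 7.95% lower. Cldn7 had 136 and 358 UMIs with a log2 ratio of 0.96 (0.67 to 1.26), just under 2-fold. Cldn3, the chromosomal neighbour of Cldn4, had 64 and 101 UMIs with 0.22 (−0.24 to 0.70). Cldn8 had 57 and 43 UMIs with −0.84 (−1.45 to −0.24). At 1000 UMIs per cell, 25% (16.7 to 34.9) of the control cells had a Cldn4 UMI, against 49.2% (40.4 to 58.1) under JPI-289, with 45 and 110 cells dropped. At 500 UMIs, with every cell kept, the shares were 20.6% (14.2 to 28.2) and 31.0% (25.2 to 37.2), and without thinning 45.4% and 50.4%, so the gap between the libraries in shares was smaller there and the intervals overlapped.

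The make-up of the DCT/CNT-like class moved too. Markers of the distal convoluted tubule summed to 3154 and 1032 CPM and those of the connecting tubule to 16536 and 35596. Singly, Slc12a3 of the first list was at 2608 and 797 CPM, and Calb1 of the second at 1874 and 1834. Both of its clusters held cells of each library. One, of 30 control and 162 JPI-289 cells, was led by Fgg, S100g, Fgb, Gsta1, Fga and Kap. Of these S100g is a connecting tubule marker, and the fibrinogen genes also led a JPI-289 PT-like cluster. Whether its cells are all distal tubule cells was not tested. In that cluster Cldn4 was at 518 (276 to 885) and 789 (656 to 940), where the control had 13 UMIs. In the other, of 111 and 80 cells, Cldn4 was at 393 (338 to 454) and 1487 (1384 to 1597). With equal weight given to each cell the log2 ratio was 0.94, which is under 2-fold.

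In PC-like cells, which formed a single cluster of deep cells with medians of 9885 and 9673.5 UMIs, Cldn4 had 1430 and 2838 UMIs. Its level was 1613 (1530 to 1699) and 3172 (3057 to 3291) CPM, with a log2 ratio of 0.98 (0.88 to 1.07). Cldn7 had 751 and 1420 UMIs with 0.91 (0.78 to 1.04), and Cldn3 had 281 and 375 with 0.40 (0.18 to 0.63). The intervals of all 3 left out 0, but each was under 2-fold. Cldn8 moved the other way, with 150 and 43 UMIs and a log2 ratio of −1.80 (−2.34 to −1.32), 3.49-fold lower. Ocln had 22 and 50 UMIs and a log2 ratio of 1.15 (0.42 to 1.97). Of 6 members tested, Ocln was thus called higher and Cldn8 lower, where 6.62% of all 7617 genes were called higher and 11.9% lower. Aqp2, the water channel that marks principal cells, was at 7274 and 6002 CPM. The whole principal cell list, Aqp2 included, summed to 13224 and 9125 CPM. The other genes of that list were not compared with Cldn8 one by one. Red blood cell markers in PC-like cells summed to 13.5 and 1540 CPM and the urothelium list to 3372 and 4750, and their part in these ratios was not tested. Only 2 of the 8 genes of the urothelium list had a UMI in control and 4 in JPI-289 PC-like cells. Sprr2f alone was at 2436 and 4116 CPM, and it was also among the leading genes of the PC-like cluster. The ratios also leave out an unnamed cluster of 5 control and 287 JPI-289 cells in which the principal cell list scored highest.

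Shares of PC-like cells are given after thinning to 1000 UMIs. A Cldn8 UMI was present in 17.7% of 62 control and 3.49% of 86 JPI-289 cells, and a Cldn7 UMI in 56.5% and 72.1%. Cldn4 was near saturation at 79.0% and 83.7%. Without thinning a Cldn8 UMI was found in 77.8% and 33.7% of cells. Cldn8 was low at both levels, so its thinned share rests on few cells, whereas its level rests on 193 UMIs in all.

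**Figure D4:**
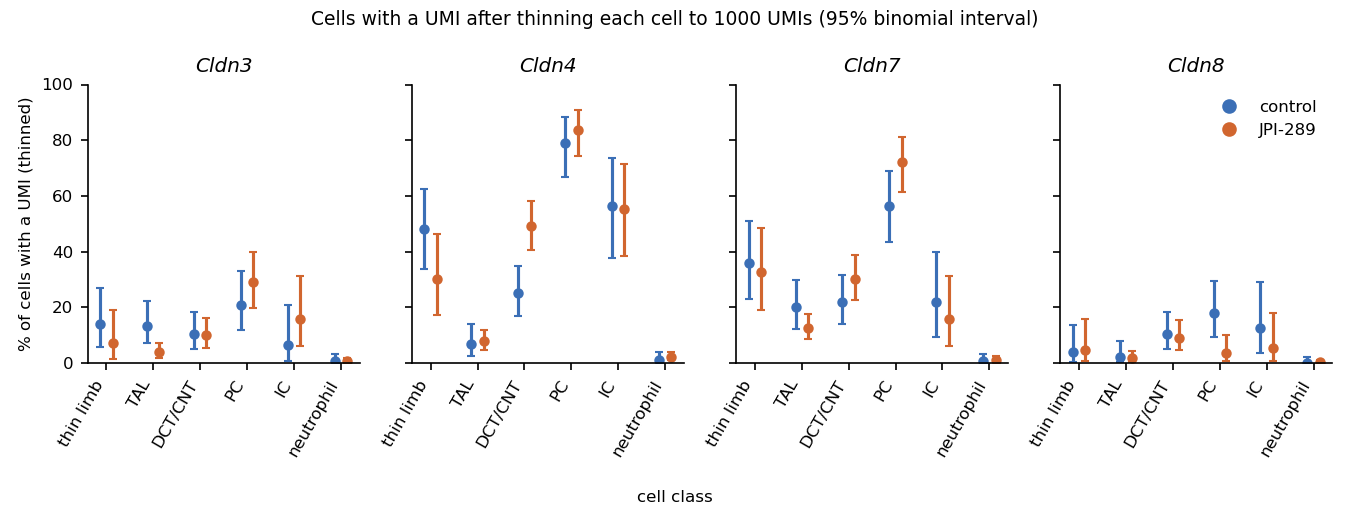
Share of cells with a UMI of Cldn3, Cldn4, Cldn7 or Cldn8 at 1000 UMIs per cell, in percent, with exact 95% binomial intervals as bars. The classes are thin limb-like, TAL-like, DCT/CNT-like, PC-like and IC-like, with neutrophil-like cells as background. Cldn4 in DCT/CNT-like cells is at 25% of control and 49.2% of JPI-289 cells, and Cldn8 in PC-like cells is at 17.7% and 3.49%.

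In IC-like cells Cldn4 had 292 and 476 UMIs, at 1178 and 2810 CPM, with a log2 ratio of 1.25 (1.04 to 1.47). Cldn8 had 38 and 5 UMIs with −2.26 (−4.08 to −1.03), and Cldn7 had 132 and 86 UMIs with −0.07 (−0.48 to 0.33). Tjp1 had 12 and 19 UMIs and a log2 ratio of 1.19 (0.09 to 2.39). Its UMIs lay in few cells: 1 control cell held 4 of the 12 and 1 JPI-289 cell 5 of the 19, which the counting interval does not cover. Of 5 members tested 2 were called higher and 1 lower, where 9.85% of all 3330 genes were called higher and 6.94% lower. The share of cells with Cldn4 depended on the depth. It was 56.3% of 32 control and 55.3% of 38 JPI-289 cells at 1000 UMIs, 20.9% (10.0 to 36.0) of 43 and 50% (34.2 to 65.8) of 42 at 500 UMIs, where no cell was dropped, and 58.1% and 71.4% without thinning. No order of the libraries is read from these shares. Principal cell markers in IC-like cells summed to 1522 and 579 CPM and connecting tubule markers to 12285 and 4947, and their part in the Cldn8 and Cldn4 values was not tested. Where cells were chosen by markers without clusters the Cldn4 ratio was 0.86.

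In EC-like cells the member that stood above background was Tjp1. It had 358 and 350 UMIs, at 182 (163 to 201) and 203 (182 to 225) CPM, with a log2 ratio of 0.16 (−0.06 to 0.38). By cluster Tjp1 was at 125 and 160 in one, at 159 and 211 in another, and at 219 in the control cells of the last, which held 182 control cells and 1 JPI-289 cell. Without that cluster the Tjp1 ratio was 0.45. After thinning 16.3% of control and 18.1% of JPI-289 EC-like cells had a Tjp1 UMI, against 1.13% and 1.38% of neutrophil-like cells.

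Of 5 members tested in EC-like cells 2 were called higher (Cldn4 and Cldn7) and 2 lower (Cldn2 and Cldn10), where 5.07% of all 9734 genes were called higher and 17.1% lower. These 4 lay near background and are not read as expression. EC-like Cldn2 was at 38.0 and 6.95 CPM beside 27.6 and 11.8 in neutrophil-like cells, and EC-like Cldn4 was at 10.1 and 27.8 beside 11.5 and 36.7. EC-like Cldn7 was at 7.10 and 18.5 beside 16.1 and 10.6. EC-like Cldn10 was at 14.7 and 6.37 beside 27.6 and 0.622 in neutrophil-like and 42.3 and 4.41 in red blood cell-like cells. Free RNA differed between the libraries for the same genes in the same direction: barcodes with under 100 UMIs held 286 and 93.1 CPM of Cldn2, 68.0 and 8.73 of Cldn10, 109 and 244 of Cldn4 and 56.7 and 78.5 of Cldn7. Free RNA was estimated at 19.2% of control and 40.1% of JPI-289 UMIs in EC-like cells, but at 3.53% and 3.39% in PT-like cells. For EC-like cells this estimate is too high, since it would supply 145% and 537% of the Cldn2 UMIs and 206% and 352% of the Cldn4 UMIs.

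The endothelium has claudins of its own. Cldn5, the main claudin of endothelial junctions, had 211 and 206 UMIs in EC-like cells with a log2 ratio of 0.16 (−0.13 to 0.44). Cldn15, a cation pore, had 512 and 113 UMIs with −1.98 (−2.30 to −1.69). The EC-like sums include the cluster of 182 control cells and 1 JPI-289 cell. Ratios of genes other than the members were not computed without it. Of the adhesion molecules of the junction, neither of the 2 with most UMIs reached 2-fold: Jam2 had 573 and 907 UMIs with 0.85 (0.70 to 1.01), and Esam had 1175 and 871 with −0.24 (−0.37 to −0.11).

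Other genes of the junction were read from lists of other claudins, other tight junction proteins, adherens junction and desmosome proteins, and regulators of claudins. Of the other claudins 3 were tested in PT-like cells, where Cldn34c1 was higher with 8 and 41 UMIs and Cldn12 (182 and 163) and Cldn1 (94 and 45) were under 2-fold. There 3 of 29 other tight junction proteins tested were called higher and 8 lower, beside 8.9% and 23.3% of all genes, with a median log2 ratio of −0.46 against −0.20. Magi2, a scaffold protein, was lower at −2.02 (−2.54 to −1.55), as was Marveld3, a relative of occludin, at −1.87. The angulin Lsr, a protein of tricellular junctions, was higher at 1.37 (1.09 to 1.66), and the actin regulator Vasp at 1.62. Cgnl1, paracingulin, had the second most UMIs of that list, 1136 and 601, and a ratio of −0.78 that was under 2-fold. Ybx3, the transcription factor ZONAB that binds ZO-1, had the most UMIs, 636 and 1243, and was higher at 1.11.

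Among regulators of claudins, 0 of 12 tested in PT-like cells were called higher and 5 lower, beside the same 8.9% and 23.3%, with a median of −0.85. Prss8, a membrane-bound serine protease, had 1019 and 139 UMIs and a log2 ratio of −2.73 (−3.00 to −2.48). Wnk4, a kinase that phosphorylates claudins, had 278 and 53 UMIs with −2.24 (−2.70 to −1.82). Its ratio was −1.25 in PC-like cells and −0.91 in TAL-like cells. In TAL-like cells 0 of 10 regulators were called higher and 2 lower (9.46% and 8.22% of all genes), and in PC-like cells 0 of 9 and 2 (6.62% and 11.9%).

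Adherens junction and desmosome genes had 2 of 15 called higher and 1 lower in PT-like cells, beside 8.9% and 23.3% of all genes, with a median of 0.39. Cdh6, a cadherin of the developing proximal tubule, was higher at 2.78 (2.26 to 3.39) with 32 and 202 UMIs, and Epcam at 1.31. Cdh2, N-cadherin, was lower at −1.40. Cdh16, the kidney-specific cadherin, was lower at −1.89 in TAL-like, −1.05 in PC-like and −1.01 in IC-like cells, and in PT-like cells its ratio was −0.42. In PC-like cells Cdh1, E-cadherin, had 445 and 740 UMIs and a ratio of 0.72, under 2-fold. There 2 of 27 other tight junction proteins were called higher and 3 lower, beside 6.62% and 11.9% of all genes. Pard6b, a polarity protein, was higher at 1.25, and tricellulin (Marveld2) at 1.22. Tjp3, which encodes ZO-3, was lower at −1.90 (−2.90 to −1.06) with 53 and 14 UMIs, unlike Tjp1 at −0.31 (−0.88 to 0.24).

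Fewer genes of the lists were tested in the other classes. In DCT/CNT-like cells 1 of 21 other tight junction proteins was called higher and 0 lower, and 0 of 8 regulators were called higher and 3 lower, beside 8.2% and 7.95% of all genes. In IC-like cells 2 of 15 other tight junction proteins were called higher and 1 lower, and 2 of 10 adherens junction genes were called higher and 1 lower, beside 9.85% and 6.94% of all genes. In EC-like cells 1 of 23 other tight junction proteins was called higher and 2 lower, beside 5.07% and 17.1% of all genes, among them Rab13 at −2.03 and Amotl1 at −1.37. Of 11 regulators in EC-like cells 0 were called higher and 4 lower, among them Zeb1 at −1.27 (−1.69 to −0.88) and Snai1 at −1.67, both repressors that bind E-boxes. The EC-like values of these lists include the cluster of 182 control cells and 1 JPI-289 cell, and its part in them was not tested. In TAL-like cells 1 of 25 other tight junction proteins was called higher and 2 lower, beside 9.46% and 8.22% of all genes.

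The patterns of the members over 22 profiles (11 classes in each library) were compared with those of 10215 genes, by Pearson correlation of log2 levels. The profiles share libraries and depth, so the values are descriptions. The gene most like Cldn4 was Krt18, a keratin of simple epithelia (r = 0.98), then Cldn7 and Cldn3 (0.97 and 0.96). Cldn3 and Cldn7 were each other's nearest gene (0.98). Cldn2 was most like 1700016C15Rik (0.94), Cldn8 like Exph5 (0.93), Cldn19 like the transcription factor Irx1 (0.90), Ocln like the protease inhibitor Spint1 (0.95) and Tjp1 like Npdc1 (0.96). Cldn10 had the weakest nearest gene, Asb9 (0.86). Cldn16 had too few UMIs for this comparison.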

How the data were processed

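Single-cell 5′ libraries of 2 kidneys' cell suspensions were analysed, 1 control and 1 JPI-289. The authors deposited UMI count matrices made with Cell Ranger 5.0.1 against mm10, with every barcode and no cell annotation. The unit is counts, and they were not normalised. No column belonged to a sample of another series. Public normal kidney data that the study also drew on were not used here.

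Cells were called in 2 steps (a total-UMI threshold, then barcodes of at least 500 UMIs tested against free RNA with 10000 simulations at a false discovery rate of 0.01), and those with over 50% mitochondrial UMIs were left out. They were clustered (scanpy 1.11.5, leidenalg 0.10.2, with 2000 variable genes, 30 components, 20 neighbours, resolution 1) without tight junction genes. The clusters of the distal nephron alone, from thin limb to collecting duct, were clustered again at resolution 2. This second step and the naming rule were chosen after seeing clusters. No doublets were removed in the main analysis. UMIs were summed per class and library. Log2 ratios had 0.5 UMIs added to each sum, with exact conditional binomial intervals, and the calculation was tested on simulated data. Named genes were all members and, per list and class, the 3 with most UMIs and the 2 most different in each direction. Members and lists were chosen with earlier results of these data known. Depth is given by UMIs per class. Alternatives changed cell calling, filters, clustering, scaling, the added count, free RNA and doublets, and 3 more were added after seeing the data. Python 3.11.15, numpy 2.4.6 and scipy 1.17.1 were used.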

Additional observations from a re-analysis of the deposited data

Results flagged for a closer look

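Cldn4 and Cldn3 had log2 ratios of JPI-289 over control that lay on opposite sides of 0 in different cell classes, with counting intervals that left out 0 on both sides. Cldn4 was at 1.73 in DCT/CNT-like, 1.43 in EC-like, 1.25 in IC-like, 0.98 in PC-like and 0.99 in PT-like cells, but at −0.38 in thin limb-like cells. The EC-like levels behind this were near those of neutrophil-like cells, and the PT-like levels were so when pooled, although 1 JPI-289 cluster reached 70.3 CPM of Cldn4 beside 36.7 in neutrophil-like cells. Cldn3 was at 0.77 in IC-like and 0.40 in PC-like cells, but at −1.58 in TAL-like and −0.99 in thin limb-like cells. With 1 library per condition the difference between classes was not tested.

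Cldn4 was also found outside the called cells. Barcodes with under 100 UMIs held 244 CPM of Cldn4 in the JPI-289 library and 109 in the control.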

How the results depend on the processing

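No paired analysis was possible because each condition had 1 library. Of 583 member ratios under alternatives 519 stayed inside the main counting interval, 62 lay outside and 2 called ratios changed sign, both in EC-like cells after free RNA was subtracted (Cldn2 0.62 and Cldn10 1.19). No direction is read from these 2, since the subtraction removes all Cldn2 UMIs and leaves few of Cldn10. For the 10 leading ratios 108 of 128 values stayed inside, and 127 kept their sign: Cldn10 in TAL-like cells, not called, was 0.17 with equal weight per cell, inside its interval. The other 20 follow, and the cause was not tested. Cldn2 in PT-like cells was −1.57 with equal weight per cell and −1.61 centred on all genes. With choices added after seeing the data, it was −2.54 in clusters with a PT score of at least 2 and −1.45 in early PT clusters. The former held 1788 control and 326 JPI-289 cells and the latter 234 and 559, so these compare fewer cells than the main ratio. With cells chosen by markers, Cldn10 in PT-like cells was −4.35, Cldn3 in TAL-like −1.001, and Cldn4 was 1.06 in DCT/CNT-like, 0.82 in PC-like and 0.86 in IC-like cells. Without clusters of 1 library (added after seeing the data) TAL-like cells gave −0.56 for Cldn3, −0.98 for Cldn10 and −2.47 for Cldn16, and EC-like Tjp1 0.45. EC-like Tjp1 was 0.53 with free RNA subtracted. Cldn4 in DCT/CNT-like cells was 2.04 with the first calling step alone, 1.99 at no more than 20% mitochondrial UMIs and 0.94 with equal weight. Cldn4 was 0.83 in PC-like cells at clustering resolution 2, and in IC-like cells 1.50 with the first calling step and 1.62 without the 5% highest doublet scores. With at least 100 UMIs per gene, the share called lower moved from 10.8% to 6.70% in thin limb-like, 7.95% to 5.14% in DCT/CNT-like, 11.9% to 5.15% in PC-like and 17.1% to 9.77% in EC-like cells. The share called higher in IC-like cells moved from 9.85% to 5.87%, and to 6.28% with at least 5 UMIs. Marker choice without clusters gave under 10 thin limb-like cells and no value there. Of 978 levels under alternatives 151 lay outside the main interval. Depth limits values that rest on few UMIs, such as those of Cldn16 and Cldn8.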

Other observations

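Podocyte-like cells had the highest Tjp1 level of any named class, although with few cells. The 17 control cells held 21 Tjp1 UMIs, or 751 CPM, and the 52 JPI-289 cells held 142, or 1820 CPM. ZO-1 is a known component of the slit diaphragm between podocytes.

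A cluster that stayed unnamed had Sprr2f, Cldn4 and Plet1 among its leading genes and held 5 control and 287 JPI-289 cells. Of the marker lists that of principal cells scored highest in it, at 3.79. Its JPI-289 cells had 2454 CPM of Aqp2, beside 6002 in PC-like cells. The PC-like values leave this cluster out. Its JPI-289 cells also had 2589 CPM of Cldn4, 882 of Cldn7 and 362 of Cldn3, and 91.1% of the 269 cells thinned to 1000 UMIs had a Cldn4 UMI. Cldn4 and Cldn7 lay below the 3172 and 1587 CPM of JPI-289 PC-like cells, beyond their counting intervals. Cldn8 was at 44.9 CPM beside 48.1 in those cells. No ratio was drawn, since the control had too few cells.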
